A study of Homo sapiens with 8 samples.

Results

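The protein kinase C isoforms are a family of serine and threonine kinases, and 8 of them, PRKCA, PRKCB, PRKCD, PRKCE, PRKCH, PRKCI, PRKCQ and PRKCZ, were followed here in thyroid cells in which the miRNA miR-375 was raised or inhibited. Members were taken by name: every non-control probe whose gene name was one of the 8 was used, which gave 11 probes on 20 spots. The array held 50599 such probes on 58717 spots, under 36337 gene names. PRKCB, PRKCE and PRKCZ had more than 1 probe, the PRKCD probe was printed in 10 spots, and each of the other probes in 1 spot. PRKCH stood in a gene table that the study drew from these same samples, so its differences in the treated cells are a description and not independent evidence of their direction.

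The study asked which mRNAs respond to miR-375, using 8 one-colour Agilent arrays with 2 arrays per group. Nthy-ori 3-1, an immortalized line of thyroid follicular origin, received premiR-375, a synthetic mimic of the miRNA, at 5 nM, or a control labelled CTL. TT, a line grown from a medullary thyroid carcinoma, a tumour of calcitonin-producing C cells, received AntagomiR-375, which is antisense to the miRNA and blocks it, at 20 nM, or a control labelled CTL. All cells were transfected with Lipofectamine RNAiMAX and grown for 48 h, and the labels give no dose for the controls. The transfection methods name a control pre-miR for Nthy-ori 3-1 and a control antagomiR for TT. The array methods name the control pre-miR alone, so the reagent of the TT CTL samples is not settled. The doses printed here are those of the labels, and the methods of the paper state higher ones for both reagents. Each cell type is represented by 1 line. The methods call the replicates biological, but the labels do not say that the 2 samples of a group came from separate cultures, so p-values measure the spread between these samples, which may be technical. In bulk RNA, fewer cells that express a gene and less of its RNA per cell cannot be told apart.

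Protein kinase C enzymes couple the breakdown of membrane lipids to phosphorylation. Phospholipase C cleaves an inositol lipid into inositol trisphosphate, which releases calcium, and diacylglycerol, which stays in the membrane and recruits the kinases through their C1 domains. The classical isoforms, here PRKCA and PRKCB, respond to calcium and diacylglycerol, PRKCD, PRKCE, PRKCH and PRKCQ respond to diacylglycerol without calcium, and the atypical isoforms PRKCI and PRKCZ respond to neither and work in cell polarity complexes with PARD6 and PARD3 proteins. PDPK1 phosphorylates the activation loop of the newly made kinases, and PHLPP1 and PHLPP2 are phosphatases that act on them. In C cells, hormone secretion is a calcium-triggered process in which calcium- and diacylglycerol-dependent isoforms are known to take part.

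The sequences that bear on these measurements are those of the miRNA and of the probes. The mature miRNA, from RefSeq on GRCh38.p14 (chr2:219001648-219001669, minus strand), is shown with its seed, bases 2 to 8, in capitals.
hsa-miR-375-3p: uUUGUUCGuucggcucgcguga
The complement of the seed was sought in the probes, each of 60 bases and written in the direction of the mRNA, because a probe that holds it reads a stretch with seed letters. The letters CGAACAA, which pair with the whole seed, stood in 0 of the 11 member probes and in 0.0613% of all 50599 probes. The letters GAACAAA, which pair with bases 2 to 7 and end in an A, stood in 1 member probe and in 0.775% of all probes. The core GAACAA within them stood in 2.21% of all probes and in that same member probe. That member probe is the second PRKCE probe, which was designed on transcript ENST00000394874. Its last bases, 31 to 60 (hg19, chr2:46238074-46238103, plus strand), are shown with the match in capitals. A match of letters is not a binding site, and probes cover a small part of an mRNA.
PRKCE second probe, part: tcatctgaaataaaggatgtGAACAAAtgc

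The isoforms share a conserved kinase domain, so the probes were also compared with each other for shared runs of bases. The longest run common to probes of different isoforms was 9 bases, between PRKCB and PRKCZ. PRKCD and PRKCQ were probed close to the end of their coding sequences, and these probes, shown because one read a signal on every array and the other on no array, shared a run of 8 bases, in capitals (hg19, PRKCD at chr3:53226222-53226281, plus strand, and PRKCQ at chr10:6470188-6470247, minus strand).
PRKCD: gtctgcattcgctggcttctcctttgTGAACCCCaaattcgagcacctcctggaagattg
PRKCQ: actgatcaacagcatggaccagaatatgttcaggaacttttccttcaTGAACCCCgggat

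Signals are given as log2 values after quantile normalization of the 8 arrays together, and a difference of 1 is a doubling. A spot that the scanner software did not mark as well above its local background is called dim here, and its value is not read as a level. Between 32071 and 37340 of the 58717 spots were well above background per array, and 0 spots were saturated. Treated and control samples with the same number shared a slide, and no slide carried both lines, so slide and line cannot be told apart. RNA integrity numbers were 9 for all samples except the TT CTL samples, which had 8. In TT cells RNA integrity and treatment therefore cannot be told apart. Between the CTL samples of the lines, RNA integrity and line cannot be told apart either. The array carried 0 probes named for miR-375 itself, so the treatment was not checked on these arrays through the level of the miRNA. The paper states that transfection was checked by RT-PCR of the transfected miRNA. Of 9 C cell and neuroendocrine markers on the array, TT cells showed all 9 in both groups, including CALCA, the gene of calcitonin, and RET. Of 10 follicular markers, TG, PAX8 and FOXE1 were among those that Nthy-ori 3-1 CTL cells showed, whereas TSHR and NKX2-1 were dim. TT CTL cells showed 6 of these 10, among them TG, 19.2-fold higher than in Nthy-ori 3-1 CTL cells, and NKX2-1, at least 243-fold higher, whereas PAX8 was 38.2-fold lower and FOXE1 was dim. Leukocyte markers were read above background on both arrays of a group for 5 to 7 of 7 genes, and fibroblast markers for 2 or 3 of 8.

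The Nthy-ori 3-1 arrays differed in a further way that moves with the treatment. Nthy-ori 3-1 CTL arrays showed RET and GFRA4 of the 9 C cell and neuroendocrine markers, and the premiR-375 arrays showed 6, namely RET, CALCA, CHGA, CHGB, SYP and SCG2, while GFRA4 was read on 1 of the 2 arrays. The summed signal of the list was 7.40 to 7.42 on the CTL arrays, 9.21 to 9.36 on the premiR-375 arrays and 18.9 to 19.1 on the TT CTL arrays. CEACAM5 was dim on all 4 Nthy-ori 3-1 arrays. NKX2-1, at 12.35 and 12.21 in TT CTL cells, was dim on all 4 Nthy-ori 3-1 arrays. Whether a trace of TT RNA was present in the premiR-375 samples was not tested, and the part of these markers in the differences between premiR-375 and CTL was not tested.

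Across the family, 3 patterns of presence were found. PRKCD, PRKCE, PRKCH, PRKCI and PRKCZ were read in both lines, PRKCA was read in Nthy-ori 3-1 cells and dim in TT cells, and PRKCB and PRKCQ were dim on all 8 arrays. In the treated cells, PRKCA and PRKCH read lower with premiR-375. With AntagomiR-375, PRKCH read higher and the brighter PRKCE probe lower. Each of these differences was similar in both pairs of samples, but the adjusted p of every member stayed above 0.05. The second PRKCE probe was at -0.04 with AntagomiR-375, and its groups overlapped. Between the control cells of the lines 5 isoforms passed the test, PRKCE and PRKCZ each by the brighter of its probes alone. Of all probes, 12.9% were higher and 12.8% lower in TT CTL cells, and the calls depended on which control arrays entered.

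**Figure D1:**
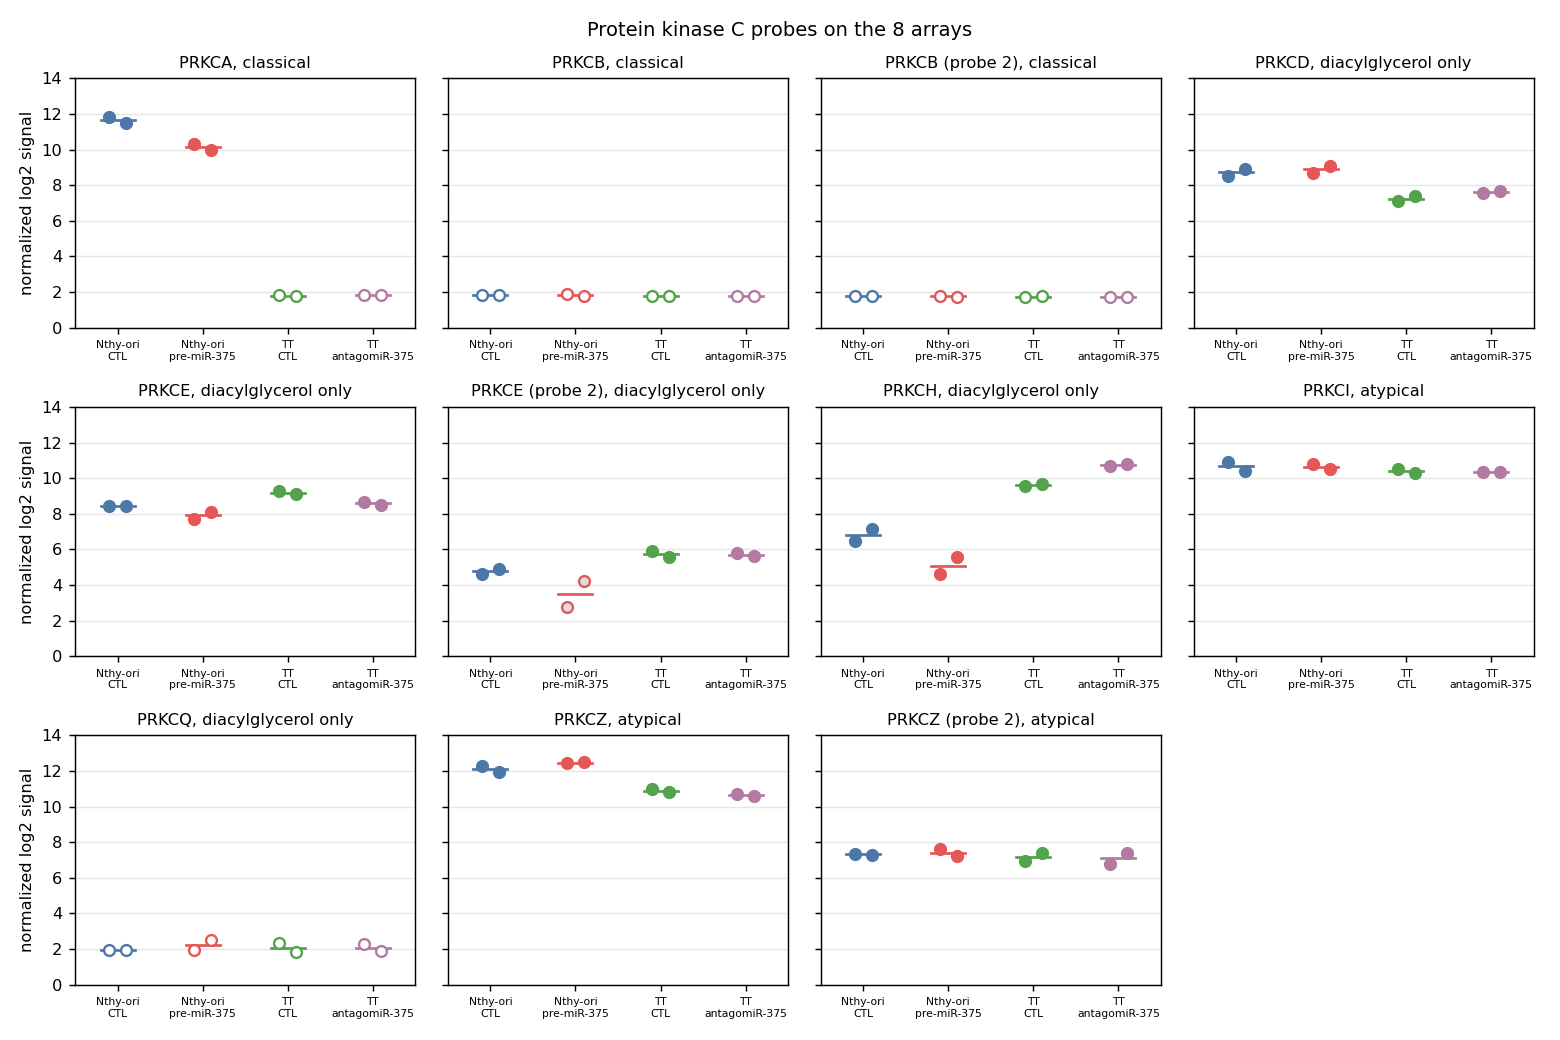
Normalized log2 signal (vertical axis) of the 11 protein kinase C probes in the 4 groups, 1 panel per probe with the class of the isoform; points are single arrays, horizontal bars are group means, open points mark groups dim on both arrays and grey points a group dim on 1 of 2 arrays. PRKCA lies between 10.00 and 11.81 in Nthy-ori 3-1 cells and at 1.78 to 1.82, dim, in TT cells, while PRKCH lies lowest with premiR-375 and highest with AntagomiR-375.

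Of the classical isoforms, PRKCA, the widely expressed calcium-dependent kinase, was read by 1 probe (hg19, chr17:64806770-64806829). Its log2 signal was 11.81 and 11.52 in Nthy-ori 3-1 CTL cells and 10.29 and 10.00 in premiR-375 cells. Both treated samples lay below both controls, and the groups did not overlap. The difference was -1.52 (SE 0.0798), or 2.87-fold lower, and it was -1.52 on one slide and -1.51 on the other. It had an unadjusted p of 0.00279 and an adjusted p of 0.318 with limma. With another background correction (normexp) the difference was -1.47 and the adjusted p 0.0235, and with the log2 values that the authors deposited they were -1.50 and 0.0366, so the call depends on the signal used.

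In TT cells the PRKCA probe was dim on all 4 arrays, at 1.81 and 1.78 in CTL cells and 1.82 and 1.82 in AntagomiR-375 cells, so no difference between these groups was read. Against the lowest signals well above background on the TT CTL arrays, PRKCA was at least 308-fold lower in TT CTL than in Nthy-ori 3-1 CTL cells. The adjusted p of this comparison was 0.00125. The fitted difference, -9.87, is no level of its own and was -5.90 with normexp, which adds an offset to all signals.

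PRKCB, the classical isoform best known from B cells, had 2 probes (hg19, chr16:24226173-24226233 and chr16:24231495-24231554). They read between 1.71 and 1.87 on all arrays and were dim throughout, so the comparisons have no level to rest on. PRKCQ, a calcium-independent isoform best known from T cells, was likewise dim on each array, at 1.81 to 2.48.

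PRKCH, the diacylglycerol-dependent isoform eta, which is prominent in epithelia, was the member whose signal differed in each treatment comparison at an unadjusted p under 0.05. Its probe (hg19, chr14:62017283-62017342) read 6.45 and 7.12 in Nthy-ori 3-1 CTL cells, 4.60 and 5.57 in premiR-375 cells, 9.56 and 9.65 in TT CTL cells and 10.66 and 10.79 in AntagomiR-375 cells. The 4 groups did not overlap, and they ran upwards from premiR-375 over Nthy-ori 3-1 CTL and TT CTL to AntagomiR-375. With premiR-375 the difference was -1.70 (SE 0.132), or 3.24-fold lower. Its value was -1.85 and -1.55 on the 2 slides, with an unadjusted p of 0.00610 and an adjusted p of 0.318. It moved with the signal used: with normexp it was -0.87 (adjusted p 0.0346) and with the deposited values -1.01 (adjusted p 0.0453).

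With AntagomiR-375 the PRKCH difference was 1.12 (SE 0.0834), or 2.17-fold higher, and 1.10 and 1.14 on the 2 slides. The unadjusted p was 0.00427 and the adjusted p 0.512, and over 9 alternatives the difference lay between 1.06 and 1.14 with adjusted p from 0.0580 to 0.571. Each comparison had its own controls in its own line, and a test of one difference against the other was not run. PRKCH was higher in TT CTL than in Nthy-ori 3-1 CTL cells by 2.82 (SE 0.288, adjusted p 0.0130), or 7.08-fold.

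PRKCE, the diacylglycerol-dependent isoform epsilon, had 2 probes that did not read alike. The brighter one (hg19, chr2:46414736-46414795) read 8.46 and 8.41 in Nthy-ori 3-1 CTL, 7.73 and 8.10 in premiR-375, 9.28 and 9.10 in TT CTL and 8.65 and 8.50 in AntagomiR-375 cells. Both treated groups lay below their controls, without overlap. The difference was -0.52 with premiR-375 (SE 0.168, adjusted p 0.415), with -0.73 and -0.31 on the 2 slides. With AntagomiR-375 it was -0.61 (SE 0.0833, unadjusted p 0.0149, adjusted p 0.512), with -0.63 and -0.60 on the 2 slides.

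The second PRKCE probe, the one that holds the seed letters printed above (whole probe hg19, chr2:46238044-46238103), read 4.64 and 4.91 in Nthy-ori 3-1 CTL and 2.76 and 4.21 in premiR-375 cells, where 1 of the 2 arrays was dim. In TT cells it read 5.90 and 5.59 in CTL and 5.80 and 5.60 in AntagomiR-375 samples, which overlapped. Its difference was -1.29 with premiR-375 (SE 0.426, adjusted p 0.420) and -0.04 with AntagomiR-375 (SE 0.0912, adjusted p 0.882), so the probes disagree in TT cells. The premiR-375 value is not stable: it was -0.25 with normexp, -0.38 with the deposited values, and -0.70 and -1.88 on the 2 slides. Between control cells the brighter probe was higher in TT by 0.76 (SE 0.139, adjusted p 0.0412) and the second by 0.97 (SE 0.200, adjusted p 0.0523). For the second probe this was 0.40 with normexp (adjusted p 0.0665) and 1.20 with scaling to the 75th percentile (adjusted p 0.0210), and the adjusted p was 0.0301 when dim probes were left out of the test.

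PRKCD, the diacylglycerol-dependent isoform delta, known for roles in cell death, was read in 10 spots per array. The spread of the spots on one array was 0.0581 to 0.147 (SD of log2 signal), with 1 spot left out as an outlier on the second AntagomiR-375 array. Its mean signal was 8.54 and 8.91 in Nthy-ori 3-1 CTL, 8.71 and 9.10 in premiR-375, 7.10 and 7.37 in TT CTL and 7.59 and 7.70 in AntagomiR-375 cells. The Nthy-ori 3-1 groups overlapped and the TT groups did not.

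The PRKCD difference was 0.18 with premiR-375 (SE 0.0801, adjusted p 0.499) and 0.41 with AntagomiR-375 (SE 0.0997, unadjusted p 0.0480, adjusted p 0.512). On the 2 TT slides it was 0.49 and 0.33. PRKCD was lower in TT CTL than in Nthy-ori 3-1 CTL cells, by 2.81-fold (log2 difference -1.49, SE 0.215, adjusted p 0.0253).

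Of the atypical isoforms, PRKCI, the polarity kinase iota, overlapped between groups throughout. Its probe (hg19, chr3:170023598-170023657) read 10.91 and 10.42 in Nthy-ori 3-1 CTL, 10.77 and 10.49 in premiR-375, 10.53 and 10.26 in TT CTL and 10.34 and 10.35 in AntagomiR-375 cells. Treated and control samples, and the control samples of the lines, fell in the same range. The differences were -0.04 (SE 0.109, adjusted p 0.951) with premiR-375, -0.05 (SE 0.126, adjusted p 0.908) with AntagomiR-375 and -0.27 (SE 0.248, adjusted p 0.525) between the lines.

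PRKCZ, the polarity kinase zeta, was read by a probe on its main transcript (hg19, chr1:2116703-2116762) and by one designed on transcript ENST00000479566 (chr1:2002740-2002799). The first read 12.27 and 11.96 in Nthy-ori 3-1 CTL, 12.44 and 12.48 in premiR-375, 10.99 and 10.79 in TT CTL and 10.69 and 10.62 in AntagomiR-375 cells. Treated and control samples did not overlap in either line. The differences were 0.34 (SE 0.150, adjusted p 0.501) with premiR-375 and -0.23 (SE 0.0921, adjusted p 0.564) with AntagomiR-375.

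Between the lines, the first PRKCZ probe was lower in TT CTL cells by 2.34-fold (log2 difference -1.23, SE 0.186, adjusted p 0.0281). The second read 6.80 to 7.63 on the 8 arrays, its groups overlapped in each comparison, and its difference between the lines was -0.14 (SE 0.218, adjusted p 0.715).

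**Figure D2:**
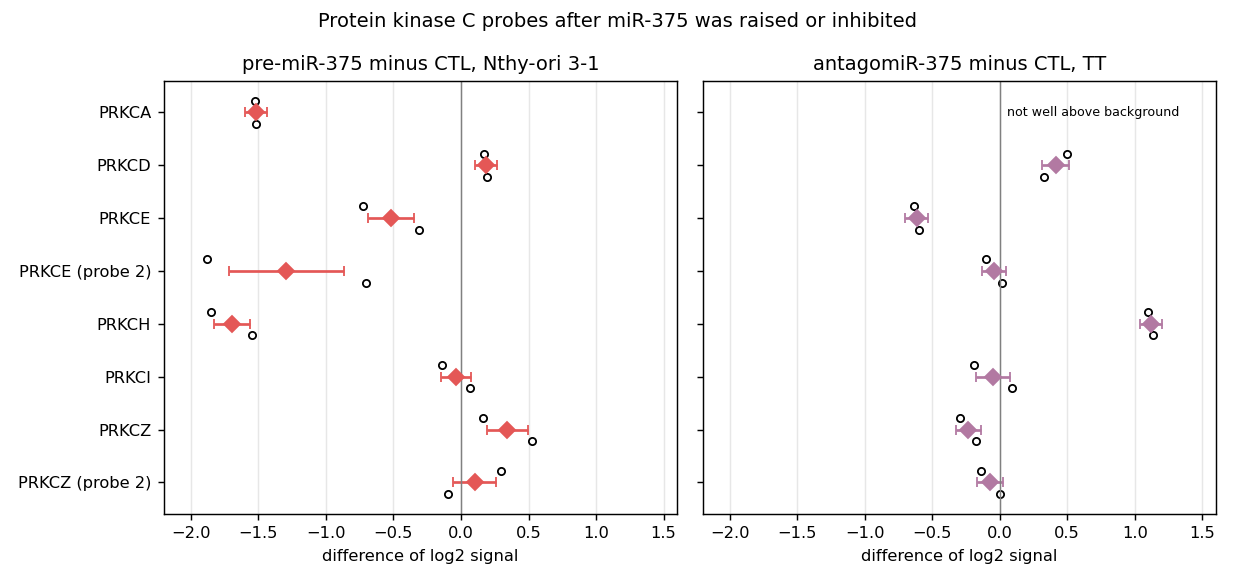
Difference of normalized log2 signal between treated and control cells (horizontal axis) for the 8 probes read on at least 2 arrays, in Nthy-ori 3-1 cells (left) and TT cells (right); diamonds with bars are the limma difference and its SE, open circles the values on the 2 slides. PRKCA (-1.52) and PRKCH (-1.70) lie farthest left in Nthy-ori 3-1 cells with both slides close together, apart from the wider second PRKCE probe, and PRKCH (1.12) lies farthest right in TT cells.

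The counts of member probes were read beside those of all probes. PRKCH stood in a gene table drawn from these same samples. Counts that include it, here and in the next paragraph, are therefore a description. With premiR-375, 2 of 11 member probes, PRKCA and PRKCH, read lower at an unadjusted p under 0.05, where 7.26% of all probes did, and 0 read higher, where 7.08% did. With AntagomiR-375, 1 member probe, PRKCE, read lower and 2, PRKCD and PRKCH, read higher, where 4.82% and 4.91% of all probes did. At an adjusted p of at most 0.05 limma called 0 of the 11 member probes in either comparison, where 0.0% of all probes were called, the smallest adjusted p of any probe being 0.318 and 0.512. With normexp, 2 of 11 member probes were called in Nthy-ori 3-1 cells, where 3.08% of all probes were, and with the deposited values the same 2 genes, where 1.14% were.

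By the size thresholds of the study, an average log2 signal of at least 6 and a difference of at most -1 in Nthy-ori 3-1 cells, 1 member probe (PRKCA) passed, where 1.36% of all probes did. The average of PRKCH in that comparison was 5.94, just under the minimum. In TT cells, with a difference of at least 0.6, 1 member probe (PRKCH) passed, where 1.18% did. The treated and control samples did not overlap for 6 of 11 member probes with premiR-375, including the dim PRKCQ probe, where 30.1% of all probes did not. With AntagomiR-375 they did not overlap for 6, of which PRKCA and a PRKCB probe were dim, where 42.3% of all probes did not. An exact permutation test of 2 against 2 samples that ignores the slide pairs cannot go below p = 0.333, so it can make no call on a single probe. Keeping the slide pairs would leave still fewer arrangements.

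**Figure D3:**
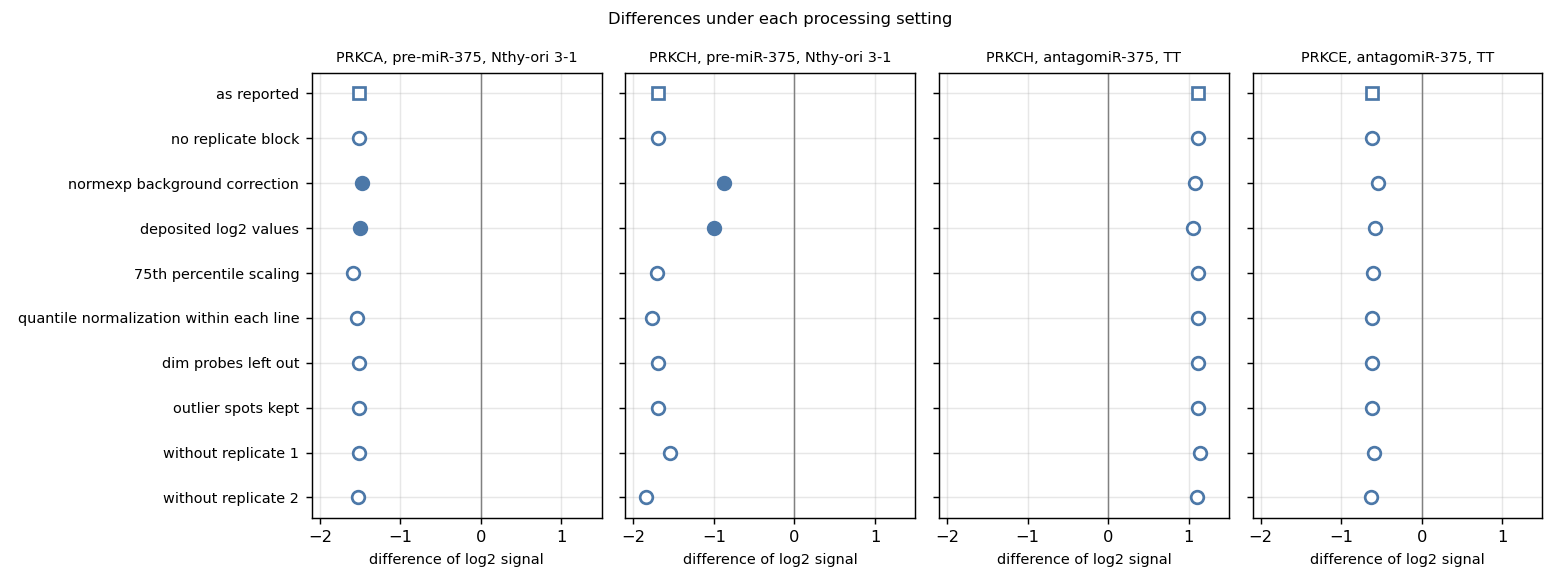
Difference of log2 signal (horizontal axis) of PRKCA and PRKCH with premiR-375 and of PRKCH and PRKCE with AntagomiR-375, each as reported (square) and under 9 other settings (circles); filled symbols have an adjusted p of at most 0.05. PRKCA stays between -1.59 and -1.47, PRKCH in Nthy-ori 3-1 cells moves between -1.85 and -0.87, and the filled points are the normexp and deposited values.

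Between the control cells of the lines, 2 member genes, PRKCE and PRKCH, were higher in TT and 3, PRKCA, PRKCD and PRKCZ, were lower at an adjusted p of at most 0.05. Among all probes 12.9% were higher and 12.8% lower. With dim probes left out of the test, 6 member probes were called, where 14133 of 31067 probes were. The groups did not overlap for 8 of 11 member probes, both dim PRKCB probes included, where 65.4% of all probes did not. These control arrays are the same ones that the treated cells were compared with. The calls depend on which samples enter: with the replicate number as a block 3 member probes (PRKCA, PRKCD and PRKCH) were called, where 14.4% of all probes were. Without the first TT CTL array 0 of all probes were called, and PRKCA then had an adjusted p of 0.0507. Without the second TT CTL array 1 member probe was called, and without the first or second Nthy-ori 3-1 CTL array 3 and 2.

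**Figure D4:**
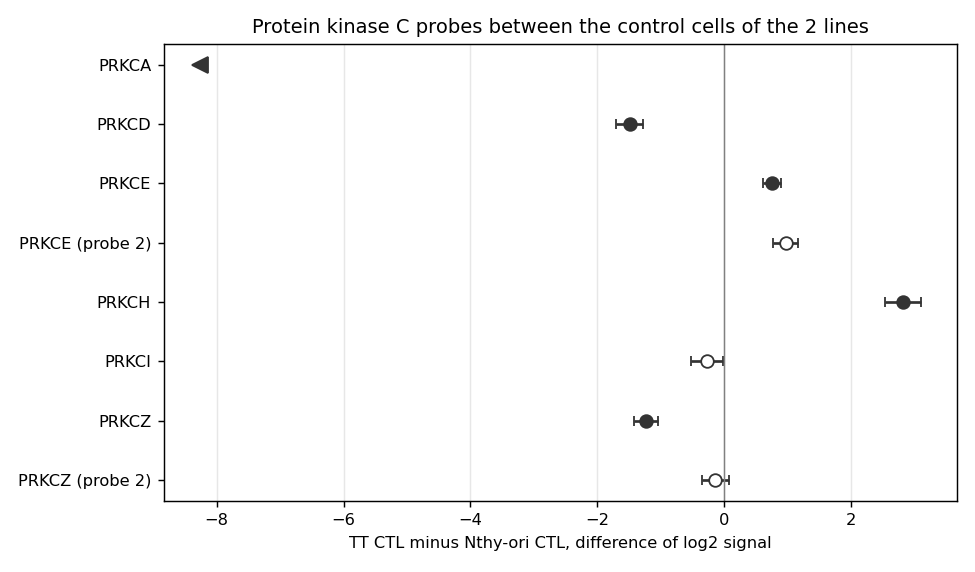
Difference of log2 signal between TT CTL and Nthy-ori 3-1 CTL cells (horizontal axis) for the 8 probes read on at least 2 arrays, with the SE as bars; filled symbols have an adjusted p of at most 0.05, and the PRKCA triangle is a bound, since its TT signal was dim. PRKCH (2.82) and PRKCE (0.76) lie to the right, PRKCZ (-1.23), PRKCD (-1.49) and PRKCA to the left, and PRKCI near 0.

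The genes around the kinases were then read by list, with the brightest probe for each gene and every listed gene on the array counted, dim ones too. In both treatment comparisons 0 genes of each list had an adjusted p of at most 0.05, so the counts below are at an unadjusted p under 0.05, which with premiR-375 7.08% of all probes passed upwards and 7.26% downwards, and with AntagomiR-375 4.91% and 4.82%. Largest differences are named among genes above background on at least 2 of the arrays compared. Of 12 phospholipases C, which make diacylglycerol, 1 read higher and 1 lower with premiR-375. The largest differences were PLCE1, a phospholipase that Ras proteins regulate, at 0.83, and PLCB2 at -0.54. The list median was -0.23, against 0.00 for all probes. Many of all probes were dim, whereas most listed genes were not. Medians and shares are therefore not like for like in either treatment comparison. With AntagomiR-375, PLCD3 was the single gene, at 0.61 (SE 0.0833), and the list median was 0.13 against 0.00 for all probes. PLCD4 had the largest difference downwards, at -0.28.

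Of 10 diacylglycerol kinases, which remove the lipid, 0 read higher and 1 lower with premiR-375. This was DGKD, at 10.69 and 10.35 in CTL and 9.26 and 9.27 in premiR-375 cells, a difference of -1.26 (SE 0.145, unadjusted p 0.0132, adjusted p 0.318). Among those above background on at least 2 of the 4 arrays, DGKZ had the largest difference upwards, at 0.19. In TT cells 0 of the 10 passed in either direction, with DGKE at 0.47.

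Among 12 related kinases and regulators, 2 read higher and 1 lower with premiR-375, and 2 higher and 0 lower with AntagomiR-375. With premiR-375 the phosphatase PHLPP2 was at 0.75 and PHLPP1, the gene counted as lower and named after its values were seen, at -0.89 (unadjusted p 0.0493). With AntagomiR-375 they were at -0.15 and 0.48. PDPK1, the kinase that primes protein kinase C, read 8.93 and 8.82 in TT CTL and 9.45 and 9.30 in AntagomiR-375 cells, a difference of 0.50 (SE 0.0835, unadjusted p 0.0227). In Nthy-ori 3-1 cells its difference was -0.03. PRKD1, a protein kinase D that protein kinase C phosphorylates, was at -1.22 with premiR-375 (unadjusted p 0.0660), with 1 of 4 arrays dim, and at 0.42 with AntagomiR-375. PRKD2 was at 0.34 and 0.36 and PRKD3 at 0.17 with premiR-375, while PRKD3 was dim on all TT arrays.

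Of 18 scaffolds, partners and substrates, 2 read higher and 3 lower with premiR-375, and 1 higher and 2 lower with AntagomiR-375. SDPR, a caveolar protein that binds protein kinase C, read 8.38 and 7.95 in Nthy-ori 3-1 CTL and 6.92 and 6.64 in premiR-375 cells, a difference of -1.38 (SE 0.0972, unadjusted p 0.00495). In TT cells it was at 0.39 (SE 0.0849, unadjusted p 0.0384). PARD6A, a partner of the atypical isoforms, was at 1.21 with premiR-375, whereas its relative PARD6B was at -0.58, and in TT cells these were at -0.14 and 0.21. MARCKS, a major substrate, was at 0.38 with premiR-375 and -0.39 with AntagomiR-375. The scaffold GNB2L1, the receptor for activated C kinase, was at -0.11 and 0.07, and SQSTM1, an adaptor for the atypical isoforms, at -0.21 and 0.34.

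Of 10 other genes from families known for a diacylglycerol-binding C1 domain, 3 read higher and 0 lower with premiR-375, and 0 in either direction with AntagomiR-375. One of the 3, RASGRP3, was above background on 1 of the 4 arrays. RASGRP1, an activator of Ras, read 5.39 and 4.58 in CTL and 6.71 and 6.13 in premiR-375 cells, with 1 of these 4 arrays dim. Its difference was 1.44 (SE 0.113, unadjusted p 0.00616), and it was dim on all TT arrays. UNC13B, a vesicle priming protein, was at -0.51 with premiR-375, and UNC13A, a relative, at 0.57 with AntagomiR-375.

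Between the lines, list counts are read beside the 12.9% of all probes that were higher and the 12.8% that were lower in TT CTL cells. All probes include many dim ones, whereas most listed genes were above background. With dim probes left out, 14133 of 31067 probes were called, so the shares and the median of all probes are not like for like. At an adjusted p of at most 0.05, 3 phospholipases C were higher and 5 lower in TT CTL than in Nthy-ori 3-1 CTL cells. PLCD4 was at least 26.8-fold higher and PLCD3 14.6-fold lower. Of the diacylglycerol kinases 1 was higher and 2 lower, among them DGKA, 11.0-fold lower. DGKI read 1.76, dim, and 5.41 in Nthy-ori 3-1 CTL and 7.08 and 7.94 in TT CTL cells, an uncertain difference of 3.93 (adjusted p 0.170). Of the related kinases 1 was higher, PRKD1 (5.92-fold), and 4 were lower, among them PRKD3, at least 44.9-fold lower.

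Of the scaffolds, partners and substrates 4 were higher and 7 lower between the lines. GAP43, a neuronal substrate of protein kinase C, was at least 66.7-fold higher in TT CTL cells, and PRKCDBP, a caveolar protein that binds PRKCD, was 73.4-fold lower. Of the genes from C1 domain families 2 were higher and 4 lower, the dim RASGRP3 probe among the 4. CHN2, a chimaerin that acts on Rac, was 65.2-fold higher. UNC13D, listed by its family and not by a C1 domain of its own, was 7.27-fold lower. The list medians were -0.44 for phospholipases C, -0.45 for diacylglycerol kinases, -0.23 for related kinases, -0.64 for scaffolds and -0.38 for C1 domain families, against -0.05 for all probes.

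**Figure D5:**
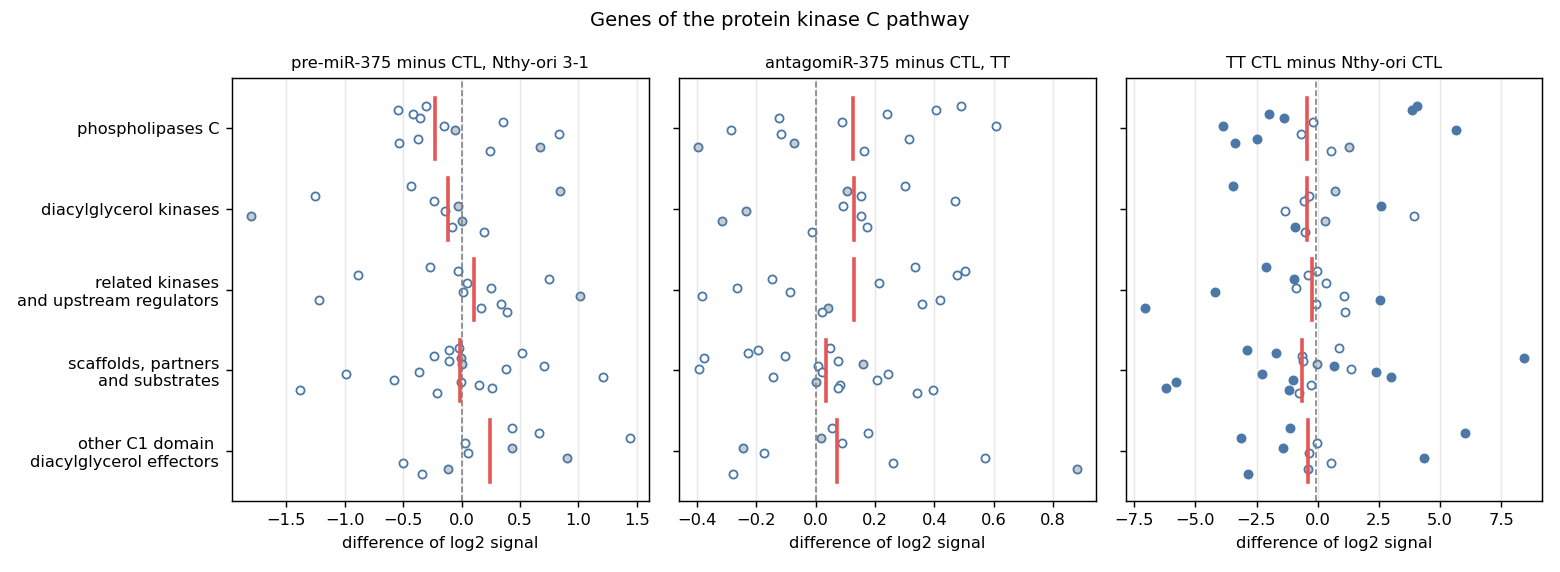
Difference of log2 signal (horizontal axes, each on its own scale) for the genes of 5 protein kinase C pathway lists in the 3 comparisons; each point is a gene, filled where the adjusted p is at most 0.05 and grey where fewer than 2 arrays were well above background, red bars are list medians and the dashed line is the median of all probes. Filled points appear in the comparison of the lines alone.

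The pattern of PRKCH over the 8 arrays was followed most closely by RABGAP1L, a Rab-regulating protein, with a Pearson r of 0.998, by XPR1, a phosphate exporter (0.997), by MATN2, a matrix protein (0.997), by NCOA7 (0.995) and by MOB1B, a Hippo pathway adaptor (0.994). These were taken from 22190 probes well above background on all arrays, of which 617 had an r of at least 0.95 with PRKCH. XPR1 differed by -1.50 with premiR-375, 0.71 with AntagomiR-375 and 2.97 between the lines, and MATN2 by -1.59, 0.95 and 1.99. The 8 points share 2 lines and 4 slides, so the coefficients mostly describe the difference between lines.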

How the data were processed

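RNA of 8 samples was hybridised to one-colour Agilent arrays. The authors deposited Feature Extraction 10.10.1.1 output with intensity columns for each spot, background subtracted but not normalized between arrays, and a table of log2 values. The deposited log2 values rank as the median spot signal does (Spearman 1) and share a distribution within each line but not between lines, so they were read as quantile normalized within a line and not used between lines. Probe positions are hg19.

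The processed intensity was taken as log2, control and outlier spots were left out, repeated spots were reduced to their mean, and quantile normalization was run over the 8 arrays. Limma 3.58.1 in R 4.3.3 tested 50584 to 50594 probes per comparison, with Benjamini-Hochberg adjustment over all probes. Each treatment comparison used its line alone, with the replicate number, which is the slide, as a block. Deviations of same-numbered samples correlated (r 0.785 over 24192 probes in Nthy-ori 3-1 and 0.330 over 27241 in TT cells). The line comparison used the 4 CTL arrays without a block. The number of arrays, 2 per group, limits the precision, with 1 residual degree of freedom in each treatment comparison and 2 between the lines. The steps were tested on simulated data.

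For a probe dim in one group, the bound on the fold uses the faintest signal still well above background on each dim array. Named were all members, the largest difference of each list in each direction among genes above background on at least 2 arrays when both replicates moved alike, a few known regulators and substrates, and the 5 genes most like PRKCH. The members and lists were chosen with earlier results of these data known. CALCB and LYZ were not found under these names. Some genes of the lists are not reported here.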

Additional observations from a re-analysis of the deposited data

How the results depend on the processing

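Of 229 values of single probes under other settings, 193 kept their direction and their side of the threshold, 17 kept the direction and lost the call, 6 kept it and gained one, 9 changed sign and 4 moved by more than the replicate spread. In Nthy-ori 3-1 cells the number of member probes called went from 0 to 2 with normexp and to 2 with the deposited values (1560 and 577 of all probes). It stayed at 0 with no replicate block, and in TT cells it was 0 in every setting, with no replicate block included. Between the lines it went from 5 to 3 with a replicate block (7259 of all probes in place of 13029) and lay between 0 and 3 when 1 control array was left out (0 to 11433 of all probes). The replicate block changed no other call. Sign changes were confined to small differences. PRKCI with premiR-375 was 0.00097 with normexp and 0.0390 with the deposited values, and -0.141 to 0.0695 without 1 replicate. With AntagomiR-375 it was 0.0147, 0.0135 and -0.189 to 0.0895. Without 1 replicate, the second PRKCZ probe lay at -0.0929 to 0.299 with premiR-375, the second PRKCE probe at -0.0995 to 0.0142 with AntagomiR-375, and without 1 control array the second PRKCZ probe at -0.370 to 0.0979 between the lines. The causes were not tested. Taking the median over probes moved PRKCE to -0.91 with premiR-375, -0.33 with AntagomiR-375 and 0.87 between the lines, and PRKCZ to -0.68 between the lines. Leaving out a replicate pair used a fit of both lines, in which the lone pair is assumed to vary like the other line. The deposited values were not run between the lines. Few arrays, dim probes and the 2 PRKCE and PRKCZ probes that read differently limit these results.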
